A study of Mus musculus with 46 samples.

Results

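Fgf4, 2 of the receptors that read FGF ligands (Fgfr1 and Fgfr2) and 7 genes known to be switched on by the ERK branch below those receptors (Spry1, Spry2, Spry4, Dusp6, Etv4, Etv5 and Egr1) were followed through the reprogramming of mouse embryonic fibroblasts (MEF) with Oct4 and either of 2 forms of Nanog. The genes were taken by symbol, from a list chosen with earlier results of these data known. All 10 have a row among the 37108 genes of the time-course table, and all 10 are among the 35976 genes obtained when the transcripts of the iPSC table are summed by symbol. The whole series holds 46 libraries of poly(A) RNA.

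In the group called NanogWT the MEF received retroviral Oct4 and native Nanog (labelled Nanog+Oct4), and in the group called NanogBiD they received Oct4 and Nanog carrying at its N-terminus a short piece of SS18 that binds the chromatin remodeller BRG1 (labelled NanogN70+Oct4). All cells derive from OG2 mice, which carry an Oct4-GFP reporter, so every group shares that transgene, and every transduced group also shares the Oct4 virus. Libraries were made at the end of infection (D0), at D1, D3, D5 and D7 in the first medium and at D8, D10 and D12 in the second, with 2 per combination and day except 1 for NanogBiD at D8. There were 2 libraries of MEF, 12 of established iPSC (6 per combination, from 2 lines, iPSC1 and iPSC2, which also differ in passage) and 1 of OG2-mES. The study's methods move the cells at D0, after infection, to the induction medium iCD3, so D0 and later days also differ in medium. At D7 the cells were moved to N2B27 with 2iL, which contains the MEK inhibitor PD0325901, the GSK3 inhibitor CHIR99021 and LIF. The libraries from D8 on, the iPSC and the mES therefore come from cells in a MEK inhibitor, whereas the MEF were kept in serum. Day and medium cannot be told apart here, and neither can line and passage in the iPSC. No label ties replicates to separate embryos or infections, so p-values measure the spread between these libraries, which may be technical.

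FGF ligands bind FGF receptors on the cell surface, and the receptors pass the signal through RAS and RAF to MEK, which phosphorylates ERK. ERK switches on genes that then damp the same pathway: the Sprouty proteins act between receptor and RAF, and DUSP6 removes the phosphates from ERK, while the ETS factors Etv4 and Etv5 and the zinc-finger factor Egr1 are transcriptional outputs. In the early embryo and in embryonic stem cells Fgf4 is the main autocrine FGF and a known target of Oct4 and Sox2, and ERK signalling moves the cells toward differentiation. Culture in 2iL blocks that step at MEK.

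The promoter table used here (RefSeq, build GRCm38.p6) matched 6 of the 10 genes: Fgf4, Fgfr2, Spry1, Spry2, Dusp6 and Etv5. The 250 bases before the annotated start are shown for the 3 genes whose levels moved apart in the results that follow: Fgf4, which rose after D7, Dusp6, which fell, and Etv5, whose level was kept in one combination. In the Dusp6 sequence the capitals mark the ETS core CGGAA, read on either strand, and in the sequences of Fgf4 and Etv5 they mark the GC box GGGCGG.
Fgf4 promoter, chr7:144861136-144861385, forward strand: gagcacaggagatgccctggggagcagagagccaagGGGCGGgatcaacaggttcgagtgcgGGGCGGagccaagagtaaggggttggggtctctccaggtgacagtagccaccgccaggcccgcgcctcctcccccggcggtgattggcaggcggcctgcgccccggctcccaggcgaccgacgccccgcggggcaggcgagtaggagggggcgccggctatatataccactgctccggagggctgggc
Dusp6 promoter, chr10:99262981-99263230, forward strand: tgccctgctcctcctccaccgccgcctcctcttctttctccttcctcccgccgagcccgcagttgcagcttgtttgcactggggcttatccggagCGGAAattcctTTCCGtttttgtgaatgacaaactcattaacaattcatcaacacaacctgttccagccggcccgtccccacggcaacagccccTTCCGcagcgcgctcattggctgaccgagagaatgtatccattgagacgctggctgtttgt
Etv5 promoter, chr16:22439571-22439820, reverse strand: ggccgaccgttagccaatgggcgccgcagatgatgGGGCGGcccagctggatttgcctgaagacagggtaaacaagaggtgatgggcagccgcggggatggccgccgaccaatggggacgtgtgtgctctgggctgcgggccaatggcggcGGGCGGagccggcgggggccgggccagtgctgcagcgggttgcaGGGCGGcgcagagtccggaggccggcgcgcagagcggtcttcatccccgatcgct

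The Dusp6 window held 3 ETS cores, whereas 25.2% of the 32851 promoter windows of this length held at least 1. None of the other 5 genes read had an ETS core in its window. The Fgf4 window had 2 GC boxes and 1 CCAAT box, and the Etv5 window shown had 3 of each. A second Etv5 window, at chr16:22438369-22438618, had 0 GC boxes, 1 CCAAT box and a GC content of 62.0%. A GC box was present in 32.7% of all windows and the letters CCAAT, on either strand, in 33.8%. Neither the AP-1 site TGANTCA, present in 6.75% of all windows, nor the serum response element, present in 1.47%, was found in the 6 genes read. Egr1 was not among these 6. The GC content was 71.2% for Fgf4, 71.2% for this Etv5 window and 56.4% for Dusp6, against a median of 52.4% over all windows. These are letter matches only, and binding was not measured.

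The genes lie apart in the genome. In GRCm38.p6, Fgf4 spans chromosome 7:144861386-144865245 and Fgfr2 chromosome 7:130162451-130266808, and the others are on chromosomes 8 (Fgfr1), 3 (Spry1), 14 (Spry2), 10 (Dusp6), 11 (Etv4), 16 (Etv5) and 18 (Spry4 and Egr1). All 10 are annotated as protein coding. Gm34921 overlaps Dusp6, and Gm16159 and Gm31288 overlap Fgfr1. The strand setting of the counting is not given in the sources used here, so reads of these overlapping genes cannot be told apart with certainty.

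Levels are given as FPKM, the deposited unit, which scales by transcript length and library size and so allows levels of different genes to be compared. Differences are on the log2(FPKM + 1) scale from limma, with their SE, and a gene is called when its Benjamini-Hochberg adjusted p over all genes tested is under 0.05 and the log2 difference is at least 1 in size. Adding 1 compresses the differences of genes below a few FPKM. Read totals were not used here, but the steps between low FPKM values gave the depth of the time-course libraries relative to each other. The libraries from D0 to D7 lay between 0.871 and 1.10 of their median, the NanogBiD libraries from D8 on between 0.81 and 1.02, and the NanogWT libraries from D8 on between 1.85 and 3.18, so that from D8 on depth and combination cannot be told apart. The iPSC table shows no such steps, and its depth is unknown. In MEF all 6 fibroblast markers were above 1 FPKM, with a sum of at least 5453 FPKM, and 5 of the 6 pluripotency markers were listed at 0. The mES library showed the reverse, with 3463 FPKM summed over the pluripotency markers and 7.51 over the fibroblast markers. One iPSC library stood apart: NanogBiD iPSC1 clone 9# had 1330 FPKM of fibroblast markers, against at most 416 in the other 11.

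Fgf4 was listed at 0 in the fibroblasts and reached its highest time-course levels with NanogBiD. It was at 0 FPKM in both MEF libraries and in every library of both combinations at D0 and D1, and did not exceed 0.0772 FPKM in any library through D5. With NanogBiD the 2 libraries gave 0.777 and 1.28 FPKM at D7, the single D8 library 18.3 FPKM, the D10 libraries 47.0 and 22.7 FPKM and the D12 libraries 61.6 and 40.8 FPKM. The NanogWT libraries gave 0.0417 and 0 FPKM at D7, 0.0211 and 0.541 FPKM at D8, 0.727 and 1.85 FPKM at D10 and 2.67 and 5.26 FPKM at D12. From D7 on each NanogBiD library was above both NanogWT libraries of the same day, and the D8 to D12 ranges of the combinations did not overlap. The share of all genes that separate in this way was not counted. The mES library held 126 FPKM, more than any time-course library.

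At D10 the mean level of Fgf4 was 34.9 ± 17.2 FPKM with NanogBiD and 1.29 ± 0.792 FPKM with NanogWT (SD, n = 2 each), a ratio of 27.1. The log2 difference between the combinations was 3.93 ± 0.30 at D10 (adjusted p = 2.97e-09) and 3.42 ± 0.30 at D12 (adjusted p = 1.64e-08). At D7 the difference of 0.98 ± 0.30 had an adjusted p of 0.0172 by limma but stayed just under the fold limit. It was called with a pseudocount of 0.1 (3.21) and after rescaling to a common total (1.73). That total lay above the summed FPKM of the D7 libraries (390866 to 411138), so rescaling also lessened the weight of the added 1. Ordered by mean level the groups ran from MEF and the early days through NanogWT D12 (3.96 ± 1.83 FPKM) to NanogBiD D8, D10, D12 (51.2 ± 14.7 FPKM) and mES. The neighbours D10 and D12 of NanogBiD overlapped in their libraries.

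**Figure D1:**
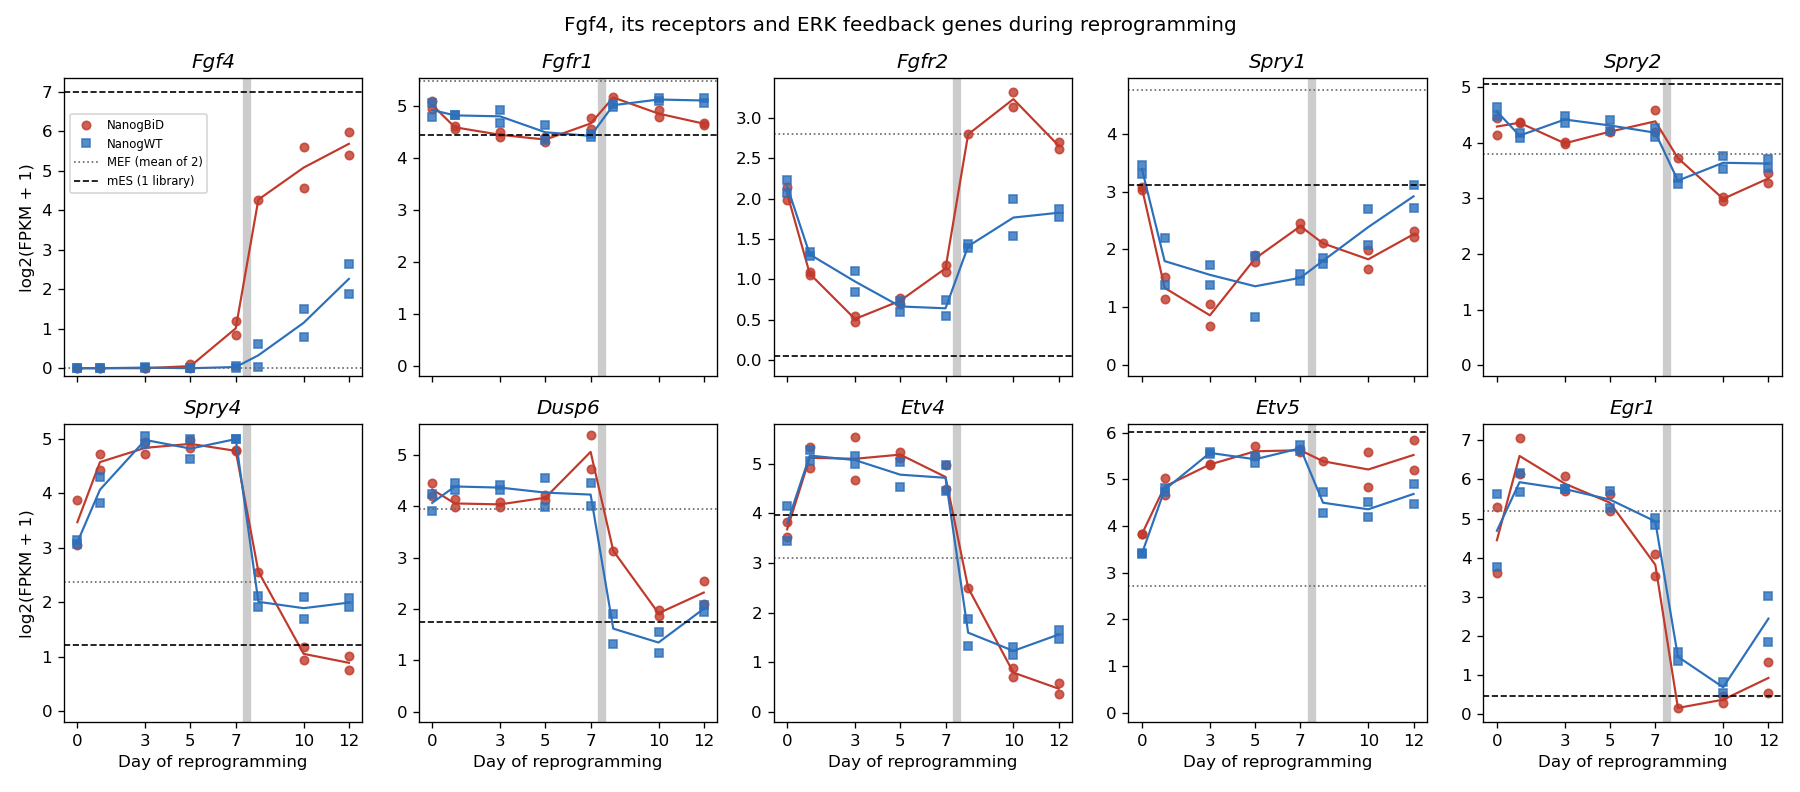
Levels of the 10 genes by day of reprogramming, as log2(FPKM + 1), with 1 point per library (circles NanogBiD, squares NanogWT), lines through the means of each day, a dotted line for the mean of 2 MEF libraries and a dashed line for the 1 mES library. The grey bar marks the change of medium after D7. Spry4, Dusp6, Etv4 and Egr1 drop across the bar in both combinations, Fgf4 climbs to 61.6 FPKM with NanogBiD and to 5.26 FPKM with NanogWT, and Etv5 reaches 56.2 FPKM at D12 with NanogBiD and 29.0 FPKM with NanogWT.

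The 2 receptor genes behaved differently from each other. Fgfr1, the receptor most abundant in these cells, changed little: its 2 MEF libraries gave 41.6 and 44.9 FPKM, the 31 time-course libraries stayed between 18.7 and 34.7 FPKM, and the mES library gave 20.6 FPKM. It was not called in any contrast within the time course. Fgfr2 was low throughout D1 to D7, with 0.383 to 1.52 FPKM over 16 libraries, after 9.05 and 3.86 FPKM in MEF and 2.96 to 3.70 FPKM at D0. It then came back with NanogBiD, at 5.95 FPKM in the D8 library, 7.82 and 9.03 FPKM at D10 and 5.48 and 5.12 FPKM at D12. The NanogWT libraries reached only 1.62 and 1.70 FPKM at D8, 1.89 and 3.00 FPKM at D10 and 2.43 and 2.66 FPKM at D12. All 5 late NanogBiD libraries lay above all 6 late NanogWT libraries, a separation whose share over all genes was not counted. The mES library held 0.0347 FPKM, so the level of Fgfr2 in late NanogBiD cells was far from that of mES while Fgf4 moved toward it.

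Fgfr2 was higher with NanogBiD at D10 by 1.47 ± 0.15 on the log2 scale (adjusted p = 1.09e-07), and by 0.83 ± 0.15 at D12 (adjusted p = 0.000113), which is under the fold limit. Sums of markers named for other cell types are given beside Fgfr2, with their levels in mES. The mES library held 251 FPKM of the epithelial set, 54.9 of blood and endothelium, 6.16 of trophoblast and 9.04 of primitive endoderm. Pecam1, of the blood and endothelium set, gave 51.5 FPKM in mES when transcripts were summed. The 3 epithelial markers summed to 56.1 to 122 FPKM in the late NanogBiD libraries and to 1.17 to 11.6 FPKM in the late NanogWT libraries. The 3 trophoblast markers summed to 0.896 to 2.69 FPKM with NanogBiD and 0.135 to 0.913 FPKM with NanogWT, and the 3 markers of blood and endothelium to 5.81 to 32.0 FPKM and 2.31 to 7.68 FPKM. From D1 to D7 the trophoblast sum reached 7.91 FPKM with NanogBiD. The 3 primitive endoderm markers summed to 0.665 to 1.17 FPKM with NanogBiD and 1.40 to 2.42 FPKM with NanogWT. The part of other cell types in the Fgfr2 result was not tested, and in bulk RNA a change in the number of cells of a type cannot be told apart from a change per cell.

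Before the change of medium after D7, Etv5, Spry4 and Etv4 stood above their D0 levels in both combinations. These days also differ from D0 by the move to iCD3, and its part in the rise was not tested. Etv5, at 5.02 to 6.11 FPKM in MEF, gave 13.2 and 13.3 FPKM with NanogBiD and 9.61 and 9.77 FPKM with NanogWT at D0, and at D7 it gave 49.4 and 47.3 FPKM and 52.1 and 47.7 FPKM, respectively. No D7 library overlapped a D0 library, but the share of all genes without such overlap was not counted. Spry4 went from 13.8 and 7.34 FPKM at D0 to 26.7 and 26.4 FPKM at D7 with NanogBiD, and from 7.83 and 7.36 FPKM to 31.04 and 30.87 FPKM with NanogWT. Most of this step had been taken by D1 to D3, since the D3 libraries of Spry4 already held 25.5 to 32.2 FPKM. Etv4 followed the same course, with 9.93 to 16.7 FPKM at D0 and 20.9 to 45.2 FPKM over the 16 libraries of D1 to D7.

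From D0 to D7 with NanogBiD, 4 of the 10 genes were called higher by limma and none was called lower. Etv5 rose by 1.79 ± 0.23 (adjusted p = 2.69e-06), Spry4 by 1.31 ± 0.22 (adjusted p = 8.19e-05), Etv4 by 1.05 ± 0.28 (adjusted p = 0.00511) and Fgf4 by 1.01 ± 0.30 (adjusted p = 0.00911). Over all 16842 genes tested, 12.7% rose and 6.15% fell in that contrast. Fgfr2 fell by 0.93 with NanogBiD (adjusted p = 4.4e-05 by limma), just under the fold limit. It was called lower with a pseudocount of 0.1 (-1.34) and with quantile normalization (-1.28). With NanogWT, Etv5 rose by 2.25 ± 0.23 (adjusted p = 1.3e-07) and Spry4 by 1.90 ± 0.22 (adjusted p = 9.83e-07), while Spry1 fell by 1.88 ± 0.29 (adjusted p = 3.29e-05) and Fgfr2 fell by 1.51 ± 0.15 (adjusted p = 9.24e-08), against 12% of all genes that rose and 5.69% that fell. The test of the difference between the combinations called none of the 10 genes, 4 of them at an unadjusted p under 0.05, and 10.1% of all genes. With the replicate number as a block Spry1 was called in that test (1.23, adjusted p = 0.0349), as it was in a fit of the compared groups alone (adjusted p = 0.0243). The calls of Spry4, Etv4 and Fgf4 with NanogBiD rest on single libraries: without the second D0 library Spry4 moved by 0.90 and Etv4 by 0.90, without the first D7 library Etv4 moved by 0.82, and without the second D7 library Fgf4 moved by 0.83.

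Egr1 is an immediate early gene that responds to ERK within minutes. Its MEF libraries gave 34.3 and 37.6 FPKM. At D0 the first and second libraries stood apart in both combinations, at 38.2 and 11.1 FPKM with NanogBiD and at 48.4 and 12.5 FPKM with NanogWT. It peaked at D1 with 133 and 69.4 FPKM with NanogBiD and 71.4 and 50.3 FPKM with NanogWT, and declined to 16.2 and 10.6 FPKM and to 31.3 and 27.7 FPKM at D7. The D7 libraries of the combinations did not overlap, but the log2 difference of -1.11 ± 0.53 was not called (adjusted p = 0.133).

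Spry1, Spry2 and Dusp6 did not share the early rise. Spry1 gave 40.0 and 17.0 FPKM in MEF and 7.21 to 10.1 FPKM in the 4 D0 libraries. At D0 it was lower than in MEF by 1.54 ± 0.30 on the log2 scale (adjusted p = 0.000508, by limma). The part of infection in this difference was not tested. Spry1 was the only 1 of the 10 called between D0 and MEF, where 8.51% of 16915 genes were called in either direction. Without the first MEF library its difference was -0.95, and in a fit of D0 and MEF alone the adjusted p was 0.0793. By D3 it was at 0.584 to 2.32 FPKM. Spry2 stayed between 14.7 and 24.1 FPKM from D0 to D7. Dusp6 stayed between 13.9 and 22.5 FPKM through D5 and at D7 gave 25.6 and 40.6 FPKM with NanogBiD and 14.96 and 20.9 FPKM with NanogWT, a log2 difference of 0.83 ± 0.24 (adjusted p = 0.0137) that is under the fold limit.

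Between D7 and D8, in a single day and across the change of medium, 4 of the ERK outputs fell in both combinations. Egr1 went from 16.2 and 10.6 FPKM to 0.118 FPKM in the D8 library of NanogBiD, and from 31.3 and 27.7 FPKM to 1.57 and 1.99 FPKM with NanogWT. Spry4 reached 4.92 FPKM with NanogBiD and 2.75 and 3.33 FPKM with NanogWT, against at least 26.4 FPKM in every D7 library. Etv4, at 30.2 and 21.6 FPKM at D7 with NanogBiD and 30.4 and 20.9 FPKM with NanogWT, reached 4.66 FPKM and 2.66 and 1.51 FPKM. Dusp6 reached 7.77 FPKM with NanogBiD and 1.51 and 2.76 FPKM with NanogWT. No D8 library overlapped the D7 libraries of its combination in any of these 4 genes, which were named because they fell. The share of all genes without such overlap was not counted.

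At D8 against D7, all 4 of these genes fell with NanogBiD, and Fgf4 and Fgfr2 rose. Over all genes 2.15% fell and 2.43% rose. With NanogWT the same 4 genes fell and Etv5 as well, 5 of the 10, and none of the 10 rose, beside 3.06% and 4% of all genes. The fold of the group means from D7 to D8 in NanogWT was 16.6 for Egr1, 12.3 for Etv4 and 10.2 for Spry4. The single NanogBiD library at D8 is assumed in the fit to vary like the other groups.

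At D10, where both combinations have 2 libraries, 5 of the 10 genes had fallen and 2 had risen against D7 in each combination. With NanogBiD these were Etv4, which fell by 3.94 ± 0.28 (adjusted p = 4.56e-09), Spry4 by 3.73 ± 0.22 (adjusted p = 5.67e-10), Egr1 by 3.45 ± 0.53 (adjusted p = 3.87e-05), Dusp6 by 3.14 ± 0.24 (adjusted p = 9.52e-09) and Spry2 by 1.40 ± 0.14 (adjusted p = 2.93e-07). Over all genes 7.78% fell and 7.96% rose with NanogBiD. With NanogWT, Egr1 fell by 4.24 ± 0.53 (adjusted p = 6.32e-06), Etv4 by 3.48 ± 0.28 (adjusted p = 3.14e-08), Spry4 by 3.11 ± 0.22 (adjusted p = 6.65e-09), Dusp6 by 2.88 ± 0.24 (adjusted p = 4.31e-08) and Etv5 by 1.31 ± 0.23 (adjusted p = 0.000234), beside 4.59% of all genes that fell and 5.69% that rose. The genes that rose were Fgf4 and Fgfr2 in both, by 4.07 ± 0.30 and 2.10 ± 0.15 with NanogBiD and by 1.12 ± 0.30 and 1.12 ± 0.15 with NanogWT. The call of Fgf4 in NanogWT rests on the second D10 library, without which the difference was 0.76 (adjusted p = 0.152), and on the second D7 library (adjusted p = 0.0599 without it). The rise of Fgfr2 in NanogWT was 0.89 without the second D10 library, under the fold limit. The median difference over the 10 genes was -0.98 with NanogBiD and -0.93 with NanogWT, against 0.05 over all genes in either combination. The contrasts of D8 and of D10 share their D7 libraries, so they are not separate evidence.

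The fibroblast markers moved differently in the combinations. They were 705 to 1600 FPKM in sum over both combinations from D1 to D7, 223 to 778 FPKM in late NanogBiD libraries and 2030 to 2570 FPKM in late NanogWT libraries. From D7 to D10, 5 of the 6 rose with NanogWT while Egr1, Etv4, Spry4 and Dusp6 fell. With NanogBiD the sum was lower after D7 beside these genes, with 1 of the 6 markers called lower, and its part in the result was not tested.

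**Figure D2:**
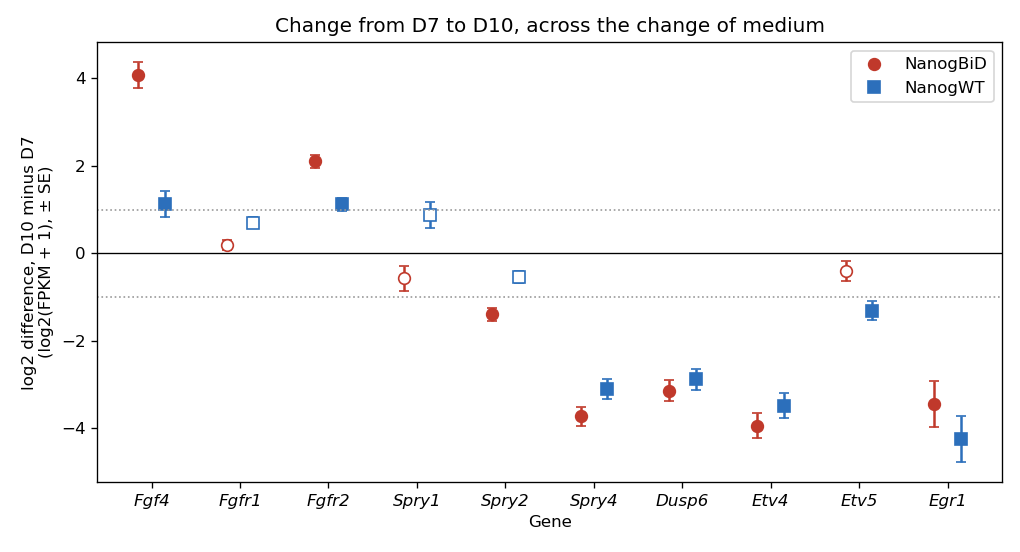
Difference from D7 to D10 of the 10 genes on the log2(FPKM + 1) scale, with bars of 1 SE, for NanogBiD (circles) and NanogWT (squares). Filled symbols are called and dotted lines mark a difference of 1. Spry4, Dusp6, Etv4 and Egr1 fell by 2.88 to 4.24 in both combinations, and the symbols for Fgf4 lie apart at 4.07 and 1.12.

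Etv5 parted from Etv4, Spry4, Dusp6 and Egr1 with NanogBiD, and fell beside them with NanogWT. With NanogBiD it kept 40.9 FPKM at D8, 47.4 and 27.4 FPKM at D10 and 56.2 and 36.0 FPKM at D12, against 49.4 and 47.3 FPKM at D7, so that the D12 libraries lay on either side of those of D7. With NanogWT it was at 25.4 and 18.4 FPKM at D8, 17.3 and 22.1 FPKM at D10 and 21.2 and 29.0 FPKM at D12, below both D7 libraries in each of the 6. The change from D7 to D10 with NanogBiD was -0.41 ± 0.23 (adjusted p = 0.161, 95% interval -0.89 to 0.06). The combinations differed in that change by 0.90 ± 0.32 (adjusted p = 0.0478), which is under the fold limit, and Etv5 was higher with NanogBiD by 0.85 ± 0.23 at D10 (adjusted p = 0.00343) and by 0.84 ± 0.23 at D12 (adjusted p = 0.00457), also under it. Without the second library of NanogBiD or of NanogWT the difference was 1.24 or 1.02 at D10, and 1.15 or 1.05 at D12. Over all alternatives run it ranged from 0.47 to 1.24 at D10 and from 0.52 to 1.15 at D12. The difference between the combinations in the change from D7 to D10 ranged from 0.51 to 1.28. At D10 and D12 each NanogBiD mean was 1.90 and 1.84 times the NanogWT mean, respectively, but the lowest NanogBiD library, at 27.4 FPKM, lay below the highest NanogWT library, at 29.0 FPKM. The mES library, kept in the same inhibitor, held 63.7 FPKM of Etv5 beside 14.6 FPKM of Etv4, 2.34 FPKM of Dusp6, 1.34 FPKM of Spry4 and 0.381 FPKM of Egr1.

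The low outputs were then compared between the combinations at D12. Spry4 was at 0.697 and 1.02 FPKM with NanogBiD and 2.77 and 3.21 FPKM with NanogWT, Etv4 at 0.288 and 0.492 FPKM and 2.15 and 1.76 FPKM, and Egr1 at 0.446 and 1.501 FPKM and 2.62 and 7.18 FPKM. In each of these genes both NanogBiD libraries lay below both NanogWT libraries, and how many of all genes separate like this was not counted. The change from D7 to D12 was not called as different between the combinations in any of the 3 (adjusted p = 0.0479, under the fold limit, for Spry4, 0.0546 for Etv4 and 0.76 for Egr1, by limma). The log2 differences at D12 were -1.11 ± 0.22 for Spry4 (adjusted p = 0.000361), -1.09 ± 0.28 for Etv4 (adjusted p = 0.00341) and -1.52 ± 0.53 for Egr1 (adjusted p = 0.0231). Without the first NanogBiD library of D12 none of these 3 was called, with differences of -0.98, -0.98 and -1.12 and an adjusted p of 0.186 for Egr1. The call of Etv4 was also lost without the first NanogWT library (-0.995), and that of Egr1 without the second (-0.93, adjusted p = 0.251).

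The 10 genes were first called between the combinations at D10, and calls over all genes also rose with the day up to D10. None of the 10 was called between NanogBiD and NanogWT by limma at D0, D1, D3, D5 or D7, where 0.76%, 1.33%, 3.7%, 6.48% and 10.4% of all genes were called in either direction. The number of the 10 at an unadjusted p under 0.05 was 0, 1, 4, 0 and 4 on those days. At D7, 4 of the 10 had an adjusted p under 0.05 by limma but stayed under the fold limit. With a pseudocount of 0.1, Fgfr2 was called lower at D3 (-1.02), and Fgf4 and Spry1 were called higher at D7 (3.21 and 1.18). At D10 the 2 genes called higher were Fgf4 and Fgfr2 and none was called lower, counts near the 15.4% and 12.3% over all genes. Spry4 was called lower at D10 with a pseudocount of 0.1 (-1.26) and with rescaled totals (-1.15), which both lessen the weight of the added 1. Without the first NanogWT library the difference was -1.04. At D12 Fgf4 was the 1 gene higher and Egr1, Etv4 and Spry4 were the 3 lower, beside 13.5% and 9.97%, and Fgfr2 was also called higher with a pseudocount of 0.1 (1.03).

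**Figure D3:**
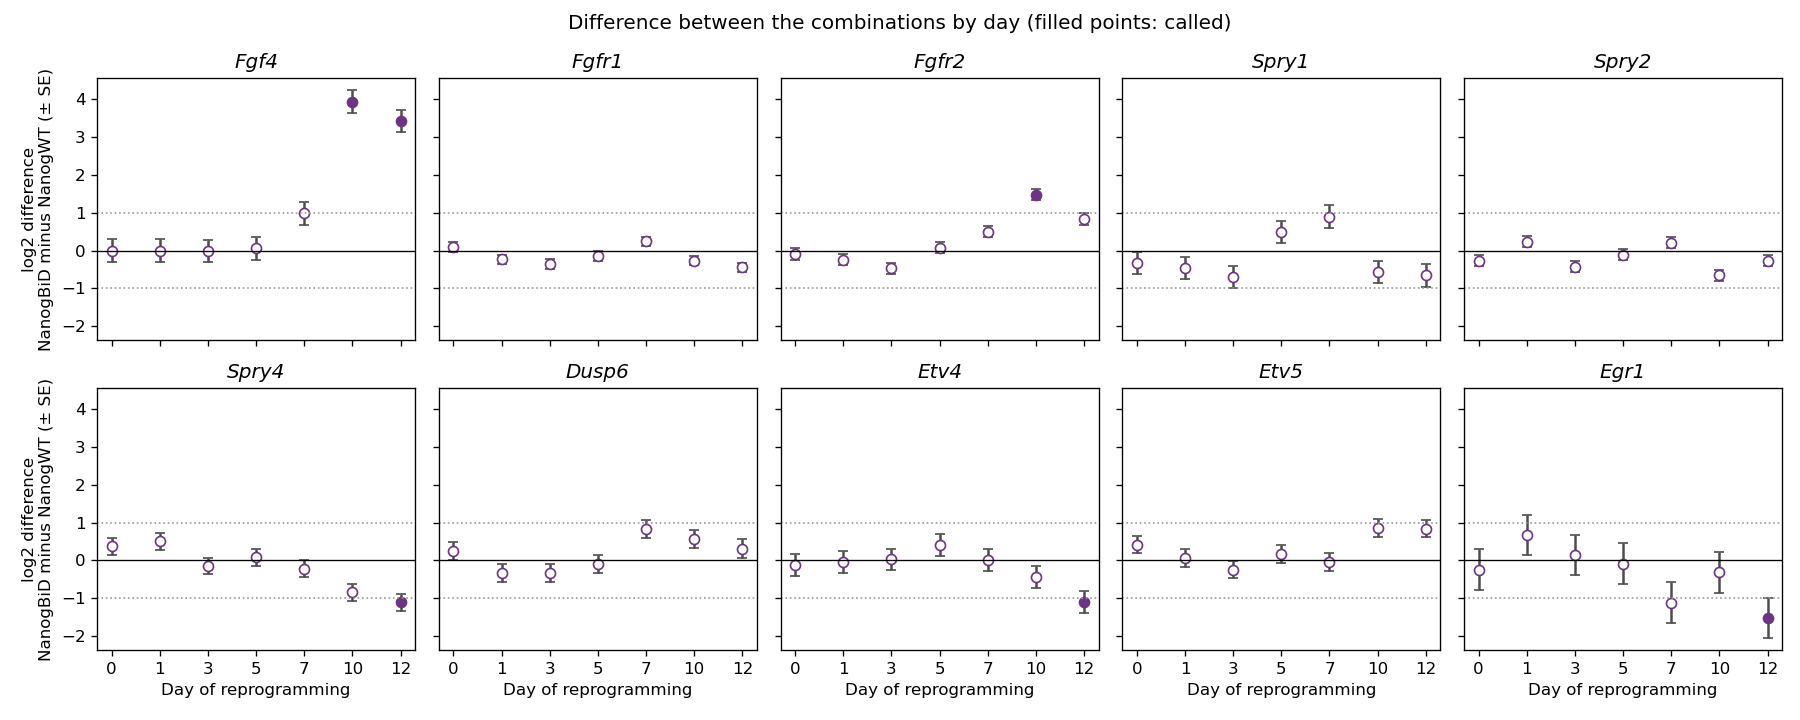
Difference between NanogBiD and NanogWT at each day with 2 libraries per combination, on the log2(FPKM + 1) scale with bars of 1 SE, 1 panel per gene. Filled points are called and dotted lines mark a difference of 1. The points from D0 to D7 are open in all panels, Fgf4 is filled at 3.93 and 3.42 at D10 and D12, Fgfr2 is filled at 1.47 at D10, and Spry4, Etv4 and Egr1 are filled below 0 at D12.

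The test of whether the change from D7 to D10 differed between the combinations called 2 of the 10 genes, against 6.72% of all genes with a higher and 8.39% with a lower difference. Fgf4 rose more with NanogBiD, by 2.95 ± 0.42 (adjusted p = 4.5e-05). That call depends on the scale, because NanogWT started from a mean of 0.0208 FPKM: as ratios of means the rise was 33.9-fold with NanogBiD and 61.7-fold with NanogWT, and with a pseudocount of 0.1 the difference was 1.48 (adjusted p = 0.231). Spry1 went the other way, from 4.12 and 4.47 FPKM at D7 to 2.97 and 2.17 FPKM at D10 with NanogBiD and from 1.72 and 1.97 FPKM to 3.21 and 5.51 FPKM with NanogWT, a difference of -1.46 ± 0.41 (adjusted p = 0.0145). Neither change of Spry1 was called on its own, and the difference was not called without the second D10 library of NanogBiD (adjusted p = 0.0596) or of NanogWT (adjusted p = 0.0758). Spry2 fell by 1.40 with NanogBiD and changed by -0.54 ± 0.14 with NanogWT (adjusted p = 0.00839, under the fold limit), a difference of -0.85 ± 0.20 (adjusted p = 0.00403) that is also under the limit.

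A wider list of 50 genes of the same pathway, which leaves the 10 out, was counted in the same contrasts. From D7 to D10, of the 47 tested, 2 rose and 7 fell with NanogBiD, where 7.96% of all genes rose and 7.78% fell. With NanogWT again 2 rose and 7 fell, where 5.69% of all genes rose and 4.59% fell, with list medians of 0.03 and -0.09 against 0.05 over all genes. None of the 10 genes of the cascade from the RAS proteins to ERK was called in either combination. Of the 9 further feedback genes 2 fell with NanogBiD and 3 with NanogWT, among them Spred3, an inhibitor of RAS signalling, by 1.36 ± 0.16 and 1.37 ± 0.16. Of the 12 further ERK targets 4 fell with NanogBiD, led by Fos (by 2.05 ± 0.30) and Myc (by 1.24 ± 0.28), and 3 with NanogWT, led by the ETS factor Etv1 (by 1.78 ± 0.21) and Phlda1 (by 1.42 ± 0.22). The mean of Myc went from 8.04 to 2.79 FPKM with NanogBiD and from 5.68 to 10.1 FPKM with NanogWT, where the change of 0.73 ± 0.28 was not called (adjusted p = 0.0683), and the difference of -1.97 ± 0.40 was called (adjusted p = 0.0013). Among the ligands Fgf15 rose in both, by 3.30 ± 0.33 and 1.87 ± 0.33, and Fgf18 rose with NanogWT by 2.90 ± 0.23. Among the receptors Fgfr3 rose with NanogBiD by 2.12 ± 0.21, and the adaptor Shc1 fell by 1.39 ± 0.22.

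Earlier and between the combinations the wider list moved as follows. From D0 to D7, 5 rose and 6 fell with NanogBiD, beside 12.7% and 6.15% of all genes, and 3 rose and 6 fell with NanogWT, beside 12% and 5.69%. The ligand Fgf7 fell by 4.54 ± 0.20 with NanogBiD and fell by 2.59 ± 0.20 with NanogWT. Over those days the feedback gene Dusp9 rose by 1.27 ± 0.25 with NanogBiD and fell by 1.74 ± 0.25 with NanogWT, and the difference of 3.01 ± 0.36 was called (adjusted p = 1.08e-05). Il17rd, a membrane inhibitor of FGF receptor signalling, rose by 1.78 ± 0.18 with NanogBiD, and the combinations differed by 1.79 ± 0.26 (adjusted p = 7.17e-05). At D10, 9 of the 47 were higher and 5 lower with NanogBiD, counts near the 15.4% and 12.3% over all genes. The higher ones included the feedback phosphatases Dusp4, Dusp5 and Dusp9, led by Dusp9 (18.4 ± 5.24 against 1.45 ± 0.913 FPKM, SD, n = 2, a difference of 3.02 ± 0.25), and Map2k1, which encodes MEK1, by 1.22 ± 0.16 (adjusted p = 2.85e-06).

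The genes whose level ran most like that of Fgf4 over the 34 libraries of the gene table were Calcoco2 (Pearson r = 0.9933), Gtsf1l (r = 0.9933), Zfp42 (r = 0.9928), Rbmxl2 (r = 0.9923) and Lefty2 (r = 0.9887). Zfp42, a marker of pluripotent cells, is one of the 6 markers summed here, with a median of 0.136 FPKM over the D1 to D7 libraries and 28.2 FPKM over the late NanogBiD libraries. Those most like Dusp6 were Gm34921 (r = 0.9748), whose locus overlaps it, Rap1b (r = 0.8571), Hmga2 (r = 0.8397), Cbfb (r = 0.8384) and Gcnt4 (r = 0.8318). Within the 10 genes, Spry4 and Etv4 had r = 0.911 and Egr1 had r = 0.838 to 0.858 with Spry4, Dusp6 and Etv4, whereas Etv4 and Etv5 had r = 0.202 over the same libraries. These libraries share days and media and are not independent points.

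In established iPSC, which grew in the same inhibitor medium, Fgf4, Etv5 and Spry2 were high and Egr1 was nearly absent. Over the 12 libraries Fgf4 ranged from 60.6 to 139 FPKM with a median of 77.1, and the mES library in the same table gave 96.3 FPKM. Etv5 ranged from 102 to 138 FPKM (median 122), above the 74.3 FPKM of mES in all 12, and Spry2 from 41.3 to 76.9 FPKM (median 58.8), above the 39.0 FPKM of mES in all 12. Egr1 lay between 0.0312 and 0.372 FPKM, against 26.0 and 29.2 FPKM in the 2 MEF libraries. No iPSC library overlapped the MEF libraries in any of these 4 genes, but the share of all genes without overlap was not counted.

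Against MEF, 3 of the 10 genes rose and 4 fell in iPSC, where 21.9% and 18.8% of 13312 genes did. Fgf4 rose by 6.35 ± 0.19 (adjusted p = 3.69e-11), Etv5 by 3.99 ± 0.12 (adjusted p = 2.91e-11) and Spry2 by 2.15 ± 0.14 (adjusted p = 5.05e-08). Egr1 fell by 4.64 ± 0.13 (adjusted p = 2.05e-11), Fgfr2 by 2.64 ± 0.35 (adjusted p = 2.2e-05), Spry1 by 1.77 ± 0.27 (adjusted p = 7.4e-05) and Fgfr1 by 1.33 ± 0.14 (adjusted p = 2.73e-06). All 7 calls were kept when clone 9# of NanogBiD iPSC1 was left out. Spry2 thus stood higher in iPSC than in MEF although it had fallen with NanogBiD from D7 to D10. The late NanogBiD libraries held 6.77 to 12.2 FPKM of Spry2 in the gene table, where the mES library held 32.3 FPKM.

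Spry4, Dusp6 and Etv4 were not called against MEF and differed widely between clones. In NanogBiD iPSC1, clone 4# gave 14.1 FPKM of Spry4, 10.2 of Dusp6 and 30.1 of Etv4, and clone 8# gave 0.466, 0.851 and 3.22 FPKM, the lowest of the 12 for all 3. From lowest to highest the 12 libraries spanned 30.3-fold for Spry4, 12.0-fold for Dusp6 and 9.85-fold for Etv4, compared with 1.36-fold for Etv5, 1.86-fold for Spry2 and 1.98-fold for Spry1. Across the 12 libraries Spry4 and Etv4 had a Pearson r of 0.889, Dusp6 and Etv4 of 0.713 and Spry4 and Dusp6 of 0.705, while Etv4 and Etv5 had an r of 0.101. These libraries share lines and passages, and 2 of them (1# and 1#-2) share a clone number. Fgfr2 ranged from 0.0161 to 2.04 FPKM, with the highest value in clone 9#, the library with 1330 FPKM of fibroblast markers.

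**Figure D4:**
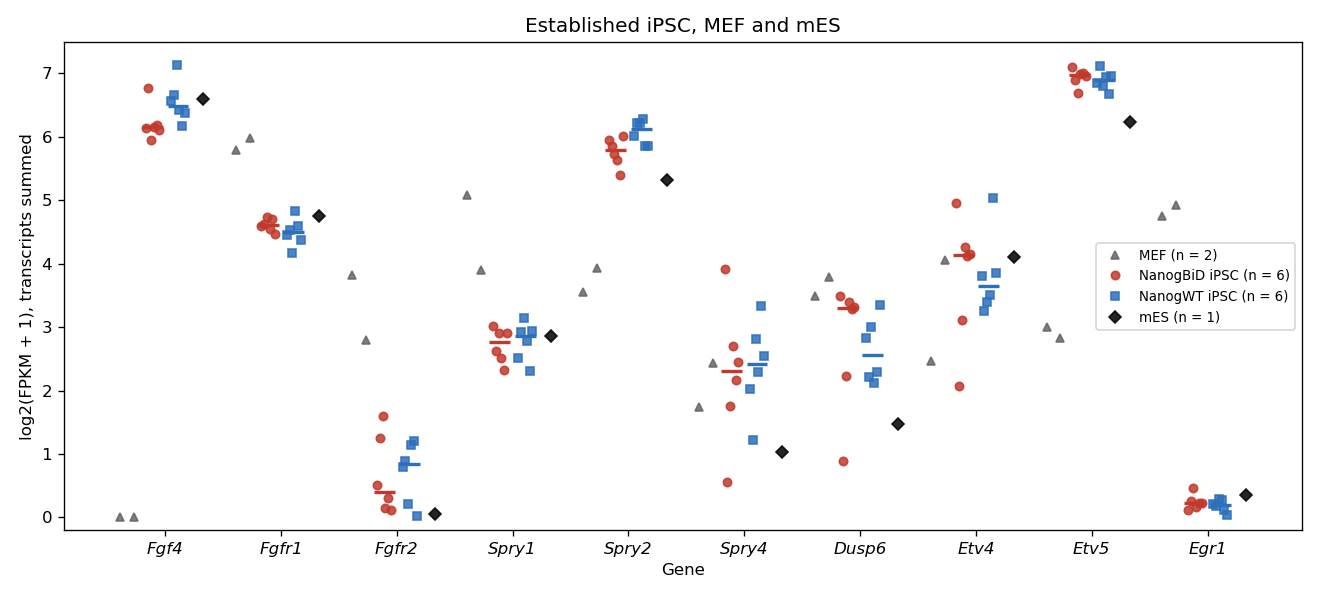
Levels of the 10 genes in MEF (triangles), NanogBiD iPSC (circles), NanogWT iPSC (squares) and mES (diamonds), as log2(FPKM + 1) of transcripts summed by symbol, 1 point per library, with short lines at the medians of the iPSC groups. Etv5 and Spry2 sit close together above mES in all 12 iPSC, whereas Spry4, Dusp6 and Etv4 span 9.85-fold to 30.3-fold.

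The iPSC of the 2 combinations were then compared. None of the 10, and 0% of the 13312 genes, was called between NanogBiD and NanogWT iPSC by limma (adjusted p = 1 for each), and Spry2 alone had an unadjusted p under 0.05. The 95% intervals of the log2 difference were -0.59 to 0.06 for Fgf4, -0.13 to 0.26 for Etv5 and -0.49 to -0.02 for Spry2, but -1.29 to 0.78 for Spry4 and -1.11 to 0.75 for Etv4, intervals that reach beyond a log2 difference of 1 in size.

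In the wider list 7 of the 42 genes tested rose and 14 fell in iPSC against MEF, beside 21.9% and 18.8% of all genes. Gab1, an adaptor, rose by 3.36 ± 0.16 and Dusp9 by 2.89 ± 0.54, whereas Dusp5 fell by 2.55 ± 0.20 and Fgf7 by 3.16 ± 0.12. Of 11 further ERK targets 6 fell, led by Ier3 (by 2.66 ± 0.29) and Junb (by 2.58 ± 0.20), and 3 rose. In the cascade Mapk3, which encodes ERK1, was the 1 of 10 called, and it fell by 1.22 ± 0.20. No gene of the list was called between the iPSC of the combinations.

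The transcripts behind these sums also shifted. Of the 10 Fgfr1 transcripts in the table, 2 chosen after their values were seen made up 40.2% and 41.9% of the gene's FPKM in MEF, 0% in mES and in 8 of the 12 iPSC libraries, and 25.6% in clone 9#. Of the 2 Spry2 transcripts, the one with a predicted RefSeq record took 65.5% and 63.7% in MEF and 4.49% in mES, and 1.86% to 63.9% in the iPSC, with 63.9% in clone 9#, 61.5% and 36.3% in NanogBiD iPSC2 clones 2# and 1#, and at most 5.16% in the other 9. Such shares come from the authors' assembly of reads to transcripts, and no test was made of them.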

How the data were processed

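RNA-seq values were those deposited: a table of FPKM per gene (34 libraries) and a table of FPKM per transcript (12 iPSC, 2 MEF, 1 mES). The authors trimmed reads with Trim Galore (0.6.4), aligned them to mm10 with HISAT2 (2.2.1) and computed FPKM with StringTie (2.2.1). The annotation, strand setting and read counts are not given in the sources used here. Since FPKM are not counts, limma (3.58.1, R 4.3.3) was fitted to log2(FPKM + 1) over all genes that reached 1 FPKM in 2 or more libraries, with an intensity trend, 1 mean per group and no replicate block, two-sided, and checked on simulated data. The time course was fitted on 31 libraries, D0 against MEF with the 2 MEF added, and the iPSC with 1 mean per combination and line. Transcripts were summed by symbol. Named genes were the 10 genes, the 2 most changed called genes per class of the wider list, and the 5 genes most correlated with Fgf4 and Dusp6. The members and lists were chosen with earlier results of these data known. Promoter sequences came from RefSeq (GRCm38.p6). Alternatives were another pseudocount, no filter, rescaled totals, quantile normalization, no fold limit, fits of the compared groups alone, a replicate block, D8 or D12 as the later day, the iPSC line left out of the fit, the libraries 1# and 1#-2 averaged, and each library left out. A result on 1 gene of the wider list is not reported here.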

Additional observations from a re-analysis of the deposited data

Results flagged for a closer look

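Among the 20 groups of 6 iPSC libraries (10 genes in each combination), 3 held a library far from the rest, where chance flags about 1 in 20. Fgf4 in NanogBiD iPSC was highest in iPSC1 clone 8#, at 108.6 FPKM, with the gap to the next library taking 0.77 of the whole range. Spry4 in NanogBiD iPSC was highest in iPSC1 clone 4#, at 14.1 FPKM (0.629 of the range), and Etv4 in NanogWT iPSC was highest in iPSC2 clone 5#, at 31.7 FPKM (0.788 of the range). Clone 8# also had the lowest Spry4, Dusp6 and Etv4 of all 12.

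The change from D7 to D10 differed between the combinations in Fgf4, by 2.95 on the log2 scale, and in Spry1, by -1.46, by the interaction term of limma. With a pseudocount of 0.1 the difference of Fgf4 was 1.48 and was not called (adjusted p = 0.231 by limma). The call of Spry1 rests on the second D10 library of each combination, and its difference was -0.59 with D8 as the later day.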

How the results depend on the processing

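The number of the 10 genes called stayed within 1.5 times its main value in the contrasts of D10 with D7 in each combination, of iPSC with MEF, of the iPSC combinations with each other and of the combinations at D0 and D1, under all alternatives run. No called difference changed sign under any of them, whereas some uncalled ones did, such as those of Egr1 at D0 and of Etv4 between iPSC and MEF. With a pseudocount of 0.1, 1 gene was called between the combinations at D3, 2 at D7, 2 in the difference from D0 to D7, 1 in the difference from D7 to D10 and 3 between D0 and MEF. With rescaled totals these were 2 at D7 and 1 in the difference from D0 to D7. The common total lay above the summed FPKM of the libraries, so this setting also acts like a smaller pseudocount. Without a fold limit 4 were called at D7, 5 at D10, 7 at D12, 7 from D0 to D7 in each combination, 6 in the difference from D7 to D10 and 6 between D0 and MEF. In a fit of the compared groups alone 0 were called between D0 and MEF and 1 in the difference from D0 to D7, and the adjusted p was 0.0621 for Egr1 at D12, 0.0513 for Spry4 from D0 to D7 with NanogBiD and 0.0607 for Fgf4 from D7 to D10 with NanogWT. With D8 as the later day 1 was called in the difference, and Spry2 with NanogBiD was at -0.66. Leaving out 1 library at a time gave 0 to 1 called at D5, 0 to 2 at D7, 1 to 5 at D12 (1 without the first NanogBiD library) and 1 to 4 between D0 and MEF (4 without the second MEF library, 2 without the second NanogBiD or the first NanogWT library). Of called values, 293 kept their call under the other settings and 12 lost it, and 217 kept it and 15 lost it with a library left out. Of uncalled values, 50 gained a call under the other settings and 28 with a library left out. Except where a value is given, the cause was not tested.

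The labels give the combinations the same replicate numbers, but the correlation of the replicate differences between combinations ran from -0.0647 to 0.395 over the 7 days and was above 0.1 on 4 of them, so that pairing by number was not taken as shown. With the replicate block 1 gene was called in the difference from D0 to D7, Spry1 at 1.23 (adjusted p = 0.0349), and the other counts were those of the fit without the block. Scaling moved the median of all genes: from D0 to D7 with NanogBiD it was 0.24, and 0.02 after quantile normalization, under which Etv4 (0.87) and Fgf4 (0.91) fell below the fold limit. Depth limits Fgf4 before D7, where most libraries are listed at 0.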
